A study of Gallus gallus with 32 samples.

Results

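The pituitary of fast-growing broiler cockerels was compared between 6 and 3 weeks of age, over all genes of a bulk RNA-seq count table. The comparison held 8 of the 32 libraries of the series, chosen by the tissue, growth class and age in the sample labels: 4 pituitaries at 6 weeks (labelled day 42) and 4 at 3 weeks (labelled day 22). All 8 birds were male Ross 308, a commercial meat hybrid, of the heavy class, called high growth rate (HGR). Low growth rate (LGR) birds of both ages and the hypothalamus of the same birds make up the other 24 libraries. The cockerels were kept in one facility with free access to feed, until a feed withdrawal of 6 h before slaughter. They ate a starter feed at first, then a grower feed, and a finisher feed in the last days, so diet changed with age. Age, feed and day of slaughter cannot be told apart. Lighter and heavier birds were kept in separate pens. Whether the 2 ages shared a pen is not stated, so pen may differ with age too. The 2 ages were different birds, not the same bird sampled at both. The titles of the samples carry other day numbers than the day label, which was used here. For the older birds the paper gives a later day of slaughter than that label.

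The pituitary gland releases the hormones that drive the thyroid, the adrenals, the gonads and body growth. Each of its endocrine cell types makes mainly one hormone, under the control of releasing and inhibiting factors that reach it from the hypothalamus. In a growing animal its cells also divide, and the genes of DNA replication and mitosis are transcribed mainly in dividing cells, which makes their level in a tissue a common readout of proliferation. In bulk tissue, fewer cells of a type and less RNA per cell cannot be told apart.

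Library totals lay between 16030002 and 18164247 counts at 6 weeks, against 14351918 to 18047576 counts at 3 weeks (p = 0.686, two-sided exact permutation test, n = 4 each). Levels are given as CPM, each gene's counts relative to the scaled size of its library, in the order of bird 1 to 4, the replicate numbers of the labels. All 8 libraries carried the pituitary hormone genes that could be matched by symbol at high level. POMC, the precursor of adrenocorticotropic hormone, had 39311, 38619, 35550 and 52083 CPM at 6 weeks, against 32519, 41494, 31432 and 48612 CPM at 3 weeks. No library stood apart by its mean distance to the others, which ran from 64.8 to 70.7 on a log2 scale over all genes.

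Most of the genes that passed the test with age fell. A call needed a fold change of 1.5 or more together with an adjusted p (Benjamini-Hochberg) of no more than 0.05. By edgeR's quasi-likelihood test 56 of 14863 genes were called, which is 0.377%. At 6 weeks 47 of the 56 genes were lower (0.316% of all tested) and 9 were higher (0.0606%). The adjusted p-values of the called genes all lay between 0.0413 and 0.0497, close to the threshold. In each of the 56 genes the 4 birds of one age lay wholly above the 4 birds of the other, as 748 genes (5.03%) did in the downward direction and 493 (3.32%) in the upward direction. At an unadjusted p under 0.05, 1125 genes (7.57%) were lower and 903 (6.08%) higher, so most of the genes that leaned with age did not reach a call. DESeq2 called 330 genes (1.61% of those it tested), 278 lower (1.36%) and 52 higher (0.254%), and these included 55 of the 56.

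The edgeR calls depended on single birds. With 1 library left out, edgeR called between 0 and 108 genes. It called 0 genes without bird 2, 3 or 4 at 3 weeks and without bird 1 or 2 at 6 weeks, 2 without bird 1 at 3 weeks, 4 without bird 4 at 6 weeks, and 108 without bird 3 at 6 weeks. When all 16 pituitary libraries of both growth classes shared one estimate of the spread, edgeR called 1 gene. Those 16 include LGR bird 4 at 3 weeks, whose low total and unlike composition are given below. The age fit over 16 libraries was not run without that bird. Under DESeq2 the 8 fits of HGR pituitary with 1 library left out, added after the data were seen, called between 197 and 353 genes. The values of every bird are therefore given for most of the genes named.

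**Figure D1:**
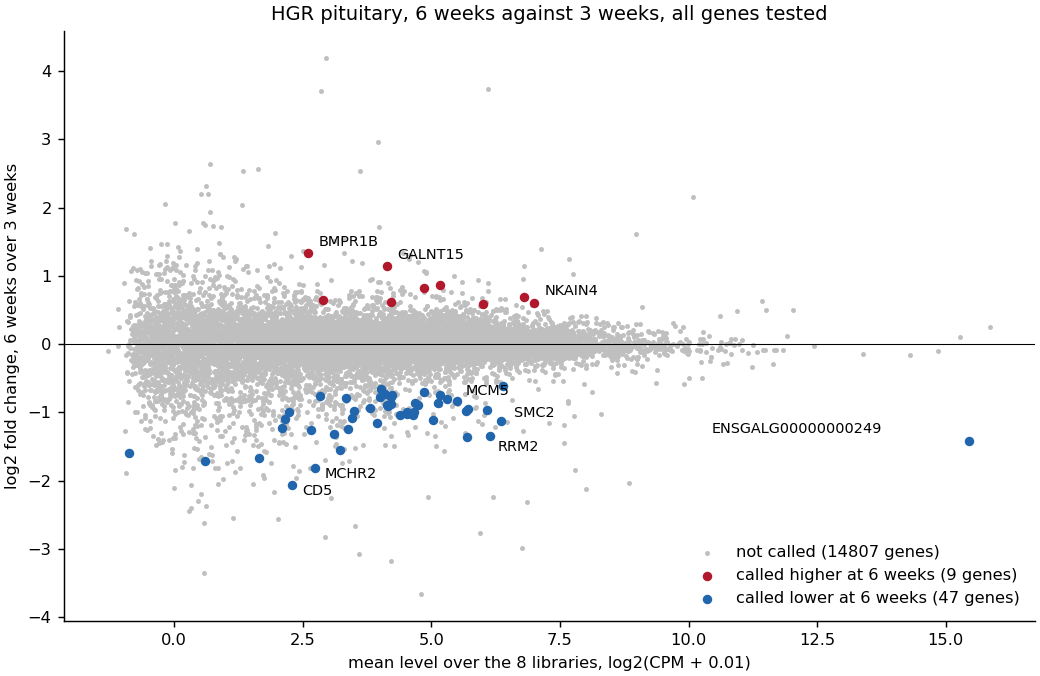
Each point is 1 of 14863 genes, with its mean level over the 8 HGR pituitary libraries on the horizontal axis, as log2(CPM + 0.01), and its log2 fold change, 6 weeks over 3 weeks, on the vertical axis. The 47 genes called lower at 6 weeks (blue) outnumber the 9 called higher (red), and one of the blue points, ENSGALG00000000249, lies far to the right, at 13358 to 32773 CPM at 6 weeks and 52247 to 70245 CPM at 3 weeks.

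Genes of DNA replication and cell division made up the largest group among the calls, and all of those called were lower at 6 weeks. Of 146 genes on a list of cell division and DNA replication, 106 were matched and tested, of which 21 were called lower and 0 higher, against 0.316% lower over all genes. The list was chosen with earlier results of these data known. Its genes were measured in the same birds, so the counts given here are not of independent results. At an unadjusted p under 0.05, 89 of the 106 were lower and 1 was higher, against 7.57% and 6.08% of all genes. The median log2 fold change of the list was -0.73, with a range from -1.35 to 0.22, where the median over all genes was 0.0065. In 82 of the 106 genes every bird at 6 weeks lay below every bird at 3 weeks, against 5.03% of all genes. The summed level of the 106 genes was 2348, 2360, 2656 and 2154 CPM at 6 weeks, against 3453, 3624, 3669 and 3152 CPM at 3 weeks. The sums did not overlap, and the mean at 3 weeks was 1.46 times that at 6 weeks. Without 1 library, edgeR called between 0 and 44 of the 106 lower, with 84 to 88 lower at an unadjusted p under 0.05, and DESeq2 called between 51 and 66.

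The replicative helicase and the supply of nucleotides were among the steps involved. MCM5, a subunit of the MCM helicase that unwinds DNA at origins, had 32, 33.8, 36.2 and 28.8 CPM at 6 weeks, against 55.7, 59.2, 63.9 and 53.9 CPM at 3 weeks. It had the lowest p-value of all genes (log2 fold change -0.83, SE 0.086, edgeR adjusted p = 0.0413). MCM6, another subunit of that helicase, had 59.2, 66.8, 76.6 and 65.6 CPM at 6 weeks, against 102, 110, 105 and 91.3 CPM at 3 weeks. MCM6 fell by 0.61 on the log2 scale (SE 0.089, edgeR adjusted p = 0.0452) and was among the 3 genes called lower with the most counts. RRM2, the small subunit of ribonucleotide reductase, which makes the deoxynucleotides for replication, had 34.7, 39.6, 55.3 and 28.9 CPM at 6 weeks, against 94.1, 107, 119 and 84.4 CPM at 3 weeks. Its change was the largest of any called gene of the list (log2 fold change -1.35, SE 0.19, edgeR adjusted p = 0.0452). CDC7, a kinase that fires replication origins and was not on the list, was called lower at a low level, with 2.5, 2.56, 3.1 and 3.04 CPM at 6 weeks, against 6.35, 6.01, 6.84 and 4.88 CPM at 3 weeks.

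The switch into the cycle and the kinase that drives mitosis moved the same way. E2F1, a transcription factor that turns on genes of the S phase, had 24.2, 26.8, 28 and 20.3 CPM at 6 weeks, against 40.9, 44.0, 52.1 and 42.8 CPM at 3 weeks (log2 fold change -0.86, SE 0.12, edgeR adjusted p = 0.0452). CDK1, the kinase that starts mitosis, had 34.6, 37.4, 44.9 and 27.0 CPM at 6 weeks, against 73.0, 70.9, 77.0 and 57.2 CPM at 3 weeks (log2 fold change -0.95, SE 0.15, edgeR adjusted p = 0.0474). In both genes bird 4 was the lowest at 6 weeks and bird 3 the highest at both ages. E2F8, another E2F factor, and CHEK1, a kinase of the DNA damage checkpoint, were also called lower.

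Genes that build the spindle and condense chromosomes fell as well. TPX2, which nucleates spindle microtubules, had 18.3, 16.7, 17.9 and 13 CPM at 6 weeks, against 33.2, 35.3, 37.3 and 29.2 CPM at 3 weeks (log2 fold change -1.04, SE 0.12, edgeR adjusted p = 0.0413). KIF15, a mitotic kinesin, had 8.94, 9.39, 11.6 and 7.97 CPM at 6 weeks, against 19.5, 25.0, 21.5 and 18.8 CPM at 3 weeks (log2 fold change -1.16, SE 0.14, edgeR adjusted p = 0.0413). NUSAP1, a spindle-associated protein, had 20.4, 20.5, 25.9 and 15.7 CPM at 6 weeks, against 44.8, 50.6, 47.9 and 35.4 CPM at 3 weeks. SMC2, the core ATPase subunit of condensin, came next to MCM6 in counts among the cell division genes called. It had 50.5, 52.8, 67.1 and 35.0 CPM at 6 weeks, against 104, 131, 118 and 95.0 CPM at 3 weeks (log2 fold change -1.12, SE 0.18, edgeR adjusted p = 0.0488). The kinesins KIF11 and KIF23, the condensin subunit NCAPG, the checkpoint protein BUB1B and the cytokinesis regulator RACGAP1 were called lower too.

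**Figure D2:**
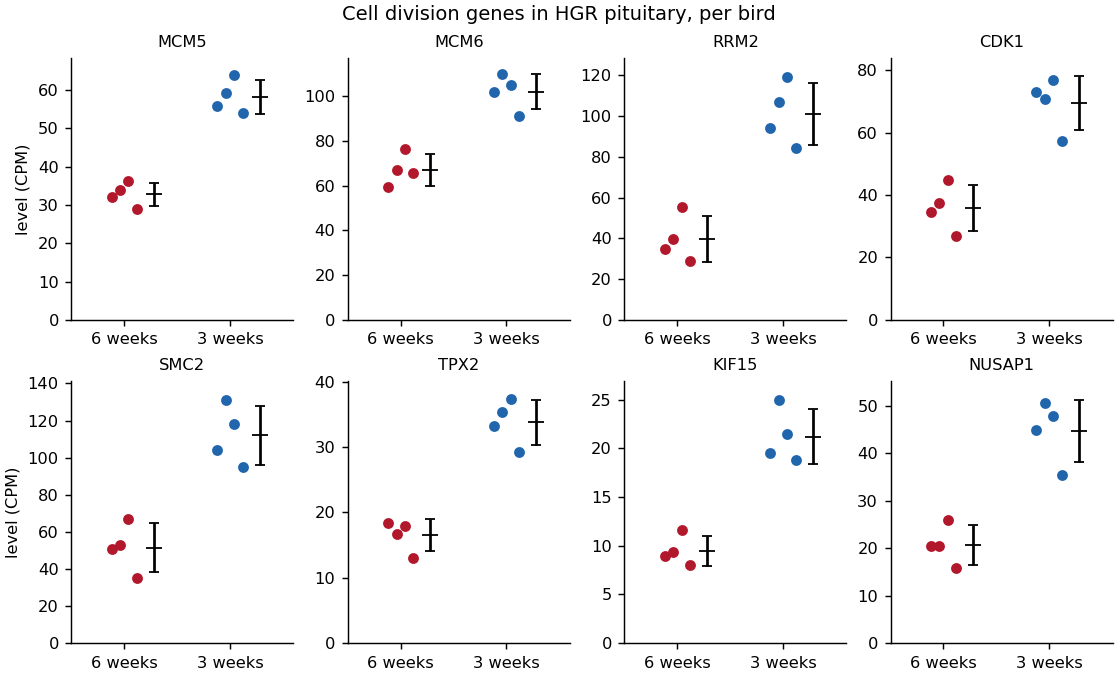
Level in CPM of 8 cell division genes in each HGR pituitary, birds at 6 weeks (red) left of birds at 3 weeks (blue), each point a bird and each bar the mean with its SD (n = 4 each). In all 8 genes the birds of the 2 ages do not overlap, for example RRM2 with 28.9 to 55.3 CPM at 6 weeks and 84.4 to 119 CPM at 3 weeks.

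Several further genes with a part in mitosis, none of them on the list, were called lower. MIS12, a kinetochore component, had 5.19, 4.45, 6.21 and 3.88 CPM at 6 weeks, against 10.7, 13.7, 14.2 and 10.6 CPM at 3 weeks (log2 fold change -1.32, SE 0.18, edgeR adjusted p = 0.0452). TRAIP, a ubiquitin ligase that acts at replication forks, had 3.69, 3.35, 4.51 and 3.36 CPM at 6 weeks, against 9.52, 8.78, 10.1 and 7.32 CPM at 3 weeks (log2 fold change -1.26, SE 0.16, edgeR adjusted p = 0.0413). CENPJ, a protein of the centriole, had 2.5, 3.23, 2.22 and 2.31 CPM at 6 weeks, against 5.93, 7.13, 5.75 and 5.22 CPM at 3 weeks. CENPK, a kinetochore protein on the list, and LMNB1, a lamin of the nuclear envelope, both had a log2 fold change of -0.74 and the same adjusted p as MCM5. Of the list, 5 members had a positive log2 fold change, and the one of these with an unadjusted p under 0.05 was GINS3, a subunit of the replicative GINS complex, with 56.0, 59.3, 56.4 and 66.1 CPM at 6 weeks, against 51.3, 49.1, 48.6 and 55.4 CPM at 3 weeks (log2 fold change 0.22, SE 0.073, edgeR adjusted p = 0.228). Genes of growth arrest, a list of 20 tested genes, had a median log2 fold change of -0.02. Of these, 0 were called by edgeR and 1 was called lower by DESeq2, against 0.377% and 1.36% of all genes.

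The called gene with the most counts was ENSGALG00000000249, a protein-coding gene on chromosome 27 (1787645 to 1791152) for which the deposited tables give no symbol. It lies between RDM1 and CD79B in those tables, which name no genome build. In HGR pituitary its level was 32773, 25505, 25746 and 13358 CPM at 6 weeks, against 52247, 70245, 67940 and 69541 CPM at 3 weeks. In hypothalamus of HGR birds its mean was 1.31 CPM at 6 weeks and 2.9 CPM at 3 weeks. The values that follow are again of HGR pituitary unless LGR is named. The groups did not overlap, and bird 4 at 6 weeks was the lowest and bird 1 at 3 weeks the lowest of its age. The gene took 3.27, 2.50, 2.67 and 1.40% of all counts at 6 weeks, against 5.16, 6.84, 6.73 and 6.79% at 3 weeks. The level at 3 weeks was 2.67 times that at 6 weeks (log2 fold change -1.42, SE 0.24, edgeR adjusted p = 0.0497). In LGR pituitary its level was 15220, 42078, 35570 and 26299 CPM at 6 weeks, against 21734, 70769, 26529 and 190081 CPM at 3 weeks, which overlap (log2 fold change -1.38, edgeR unadjusted p = 0.0239). The difference between the growth classes was -0.04 (unadjusted p = 0.96), and it was -1.01 (unadjusted p = 0.0908) without LGR bird 4 at 3 weeks, the highest of those birds and the pituitary library with the lowest total.

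Of 8 hormone genes on the list, 5 could be matched by symbol, and none of these was called. Growth hormone and the beta chain of luteinizing hormone were not among the 5, so no change with age is given under their names. Either may be counted under an identifier without a symbol, and whether ENSGALG00000000249 is one of them was not tested. TSHB, the beta chain of thyrotropin, had 2801, 5733, 2522 and 2361 CPM at 6 weeks, against 1909, 2722, 2047 and 2020 CPM at 3 weeks. Bird 2 was the highest of both ages, and the groups overlapped (log2 fold change 0.63, SE 0.28, edgeR adjusted p = 0.364). Prolactin, listed as prl, had 22642, 12786, 16582 and 24292 CPM at 6 weeks, against 21553, 18987, 21729 and 23121 CPM at 3 weeks (log2 fold change -0.16, SE 0.19, edgeR adjusted p = 0.759). POMC changed by 0.10 on the log2 scale (SE 0.17, edgeR adjusted p = 0.838). CGA, the alpha chain shared by thyrotropin and the gonadotropins, had 26500, 38630, 25488 and 23516 CPM at 6 weeks, against 27804, 37136, 29337 and 27618 CPM at 3 weeks (log2 fold change -0.09, SE 0.17, edgeR adjusted p = 0.853). FSHB, the beta chain of follicle-stimulating hormone, varied most between birds, with 1727, 1974, 879 and 583 CPM at 6 weeks, against 1663, 688, 2286 and 1224 CPM at 3 weeks (log2 fold change -0.18, SE 0.44, edgeR adjusted p = 0.894).

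**Figure D3:**
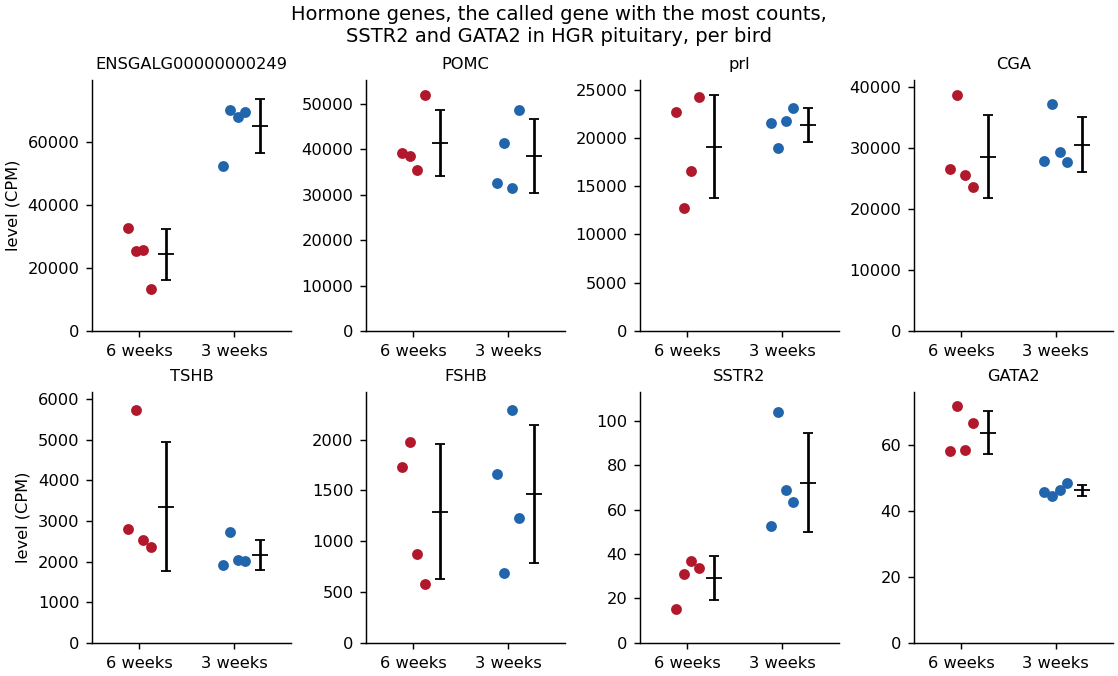
Level in CPM of ENSGALG00000000249, 5 hormone genes, SSTR2 and GATA2 in each HGR pituitary, 6 weeks (red) left of 3 weeks (blue), each point a bird and each bar the mean with its SD (n = 4 each). ENSGALG00000000249, SSTR2 and GATA2 separate the ages, while POMC, prl, CGA, TSHB and FSHB overlap.

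Of 21 tested transcription factors that specify pituitary cell types, 0 were called by edgeR and 0 by DESeq2 at the fold limit. Over all genes these shares were 0.377% and 1.61%. At an unadjusted p under 0.05, 4 were higher and 2 lower, against 6.08% and 7.57% of all genes, and the median log2 fold change was 0.05. GATA2, a factor of thyrotropes and gonadotropes, had 58.3, 71.9, 58.7 and 66.7 CPM at 6 weeks, against 45.9, 44.7, 46.4 and 48.7 CPM at 3 weeks. It passed the adjusted p (0.0497, edgeR) without the fold limit, with a log2 fold change of 0.46 (SE 0.078). ISL1, a LIM-homeodomain factor of the developing gland, lay the other way, with 29.5, 26.0, 22.8 and 24.5 CPM at 6 weeks, against 39.4, 37.6, 31.0 and 38.4 CPM at 3 weeks (log2 fold change -0.51, SE 0.10, edgeR adjusted p = 0.0804).

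Among receptors for hypothalamic factors, 0 of 16 tested were called by edgeR and 1 by DESeq2, against 0.377% and 1.61% of all genes. That one was SSTR2, a somatostatin receptor, through which somatostatin holds back hormone release. SSTR2 had 15.1, 31.0, 36.9 and 33.9 CPM at 6 weeks, against 52.4, 104, 68.7 and 63.2 CPM at 3 weeks. The groups did not overlap (log2 fold change -1.30, SE 0.29, edgeR adjusted p = 0.0914, DESeq2 adjusted p = 0.000391). A long intergenic noncoding RNA, ENSGALG00000041693, starts 1109 bases past the end of SSTR2 on chromosome 18 and was called lower by edgeR (log2 fold change -1.36, SE 0.22, adjusted p = 0.0484). It had 16.6, 32.7, 33.3 and 33.3 CPM at 6 weeks, against 77.4, 90.9, 66.3 and 63.1 CPM at 3 weeks, and bird 1 was the lowest at 6 weeks in both genes. The library kit does not mark strand, so reads of overlapping transcripts at this place could not be assigned to one gene by strand.

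The other receptors moved less. DRD2, the dopamine receptor through which dopamine restrains prolactin in mammals, had 33.5, 30.1, 36.6 and 38.3 CPM at 6 weeks, against 28.4, 20.8, 20.2 and 27.3 CPM at 3 weeks (log2 fold change 0.52, SE 0.13, edgeR adjusted p = 0.126). SSTR4, another somatostatin receptor, had 1.69, 1.71, 1.64 and 2.41 CPM at 6 weeks, against 3.88, 2.44, 3.59 and 3.12 CPM at 3 weeks (edgeR adjusted p = 0.163). GHRHR, the receptor for growth hormone-releasing hormone, had 376, 360, 323 and 248 CPM at 6 weeks, against 331, 352, 408 and 332 CPM at 3 weeks, with a log2 fold change of -0.12 (SE 0.13, edgeR adjusted p = 0.73). TRHR, the receptor for thyrotropin-releasing hormone, had 37.6, 69.4, 35.5 and 31.1 CPM at 6 weeks, against 31.6, 73.6, 43.1 and 51.0 CPM at 3 weeks, and bird 2 was the highest of both ages, as it was for TSHB. MCHR2, a receptor for melanin-concentrating hormone, fell outside this list and was called lower at a low level, with 1.94, 2.81, 4.33 and 2.67 CPM at 6 weeks, against 7.34, 11.8, 12.9 and 9.25 CPM at 3 weeks (log2 fold change -1.81, SE 0.27, edgeR adjusted p = 0.0452).

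The secretory apparatus showed no edgeR call, where 0.377% of all genes were called. At that share lists of this size would mostly hold none, so the absence of a call says little. Among granins and prohormone-processing enzymes, 0 of 15 were called, with a median log2 fold change of 0.26. At an unadjusted p under 0.05, 3 of the 15 were lower and 2 higher, against 7.57% and 6.08% of all genes. CHGA, chromogranin A of the secretory granule, was counted at a high level, with 72438, 82814, 51931 and 53967 CPM at 6 weeks, against 57267, 54223, 46068 and 61120 CPM at 3 weeks (log2 fold change 0.26, SE 0.16, edgeR adjusted p = 0.542). CPE, carboxypeptidase E, which trims hormone precursors, had 1006, 1108, 1052 and 912 CPM at 6 weeks, against 1132, 1564, 1404 and 1666 CPM at 3 weeks. Its groups did not overlap, and its adjusted p was 0.108 by edgeR and 0.00391 by DESeq2 (log2 fold change -0.50, SE 0.12). Vesicle fusion and exocytosis (35 tested), ER translocation and secretory transport (52 tested) and the unfolded protein response (33 tested) had 0 edgeR calls. Their medians were 0.05, -0.01 and 0.06 on the log2 scale. DESeq2 called 1 gene of vesicle fusion lower, against 1.36% of all genes.

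The 9 genes called higher at 6 weeks did not belong to one list. BMPR1B, a type I receptor for bone morphogenetic proteins, was the called gene with the largest rise and the only call among 22 tested genes of the activin, inhibin and BMP list. BMPR1B had 9.57, 7.32, 10.8 and 6.92 CPM at 6 weeks, against 3.24, 4.16, 2.85 and 3.52 CPM at 3 weeks (log2 fold change 1.33, SE 0.20, edgeR adjusted p = 0.0452). INHBA, the activin beta A subunit of the same list, had 43.0, 44.7, 49.6 and 35.0 CPM at 6 weeks, against 34.1, 30.6, 31.3 and 32.7 CPM at 3 weeks (edgeR adjusted p = 0.113). The list as a whole went both ways, with 14 positive and 8 negative log2 fold changes, from -1.48 to 1.33, and a median of 0.06. At an unadjusted p under 0.05, 3 of its genes were higher and 2 lower, against 6.08% and 7.57% of all genes. GALNT15, an enzyme that starts O-linked glycosylation, had 26.8, 19.6, 25.3 and 24.6 CPM at 6 weeks, against 8.25, 13.6, 9.11 and 12.9 CPM at 3 weeks (log2 fold change 1.14, SE 0.18, edgeR adjusted p = 0.0454). KCNJ16, an inward-rectifier potassium channel subunit, had 44.4, 55.6, 48.6 and 37.1 CPM at 6 weeks, against 20.7, 26.5, 27.9 and 27.1 CPM at 3 weeks (log2 fold change 0.86, SE 0.14, edgeR adjusted p = 0.0474).

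The rising genes with the most counts changed less in fold. NKAIN4, a membrane protein that interacts with the sodium pump, had 148, 138, 151 and 177 CPM at 6 weeks, against 109, 96.8, 93.7 and 107 CPM at 3 weeks (log2 fold change 0.60, SE 0.088, edgeR adjusted p = 0.0452). LRIG1, a transmembrane protein that dampens growth factor receptors, had 137, 127, 143 and 144 CPM at 6 weeks, against 70.5, 99.0, 76.1 and 95.4 CPM at 3 weeks (log2 fold change 0.69, SE 0.11, edgeR adjusted p = 0.0488). HEBP1, a heme-binding protein, had 73.7, 72.1, 86.9 and 77.5 CPM at 6 weeks, against 59.0, 46.9, 46.0 and 53.5 CPM at 3 weeks. SYTL2, a synaptotagmin-like protein of vesicle transport, had 21.1, 22.6, 22.1 and 24.3 CPM at 6 weeks, against 13.1, 13.9, 15.4 and 16.1 CPM at 3 weeks. FAM129A had 36.9, 39, 44.7 and 27.5 CPM at 6 weeks, against 20.5, 20.0, 20.9 and 22.5 CPM at 3 weeks. The last of the 9 was ENSGALG00000044919, without a symbol, at 8.61 to 9.52 CPM at 6 weeks, against 5.35 to 6 CPM at 3 weeks. CACNA1H, a T-type calcium channel, stayed just short of a call, with 21.1, 26.7, 18.7 and 16.6 CPM at 6 weeks, against 11.4, 10.6, 9.11 and 12.8 CPM at 3 weeks (log2 fold change 0.92, SE 0.16, edgeR adjusted p = 0.0573). HEBP1 had the smallest fold change of the 9 called, 0.59 on the log2 scale.

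**Figure D4:**
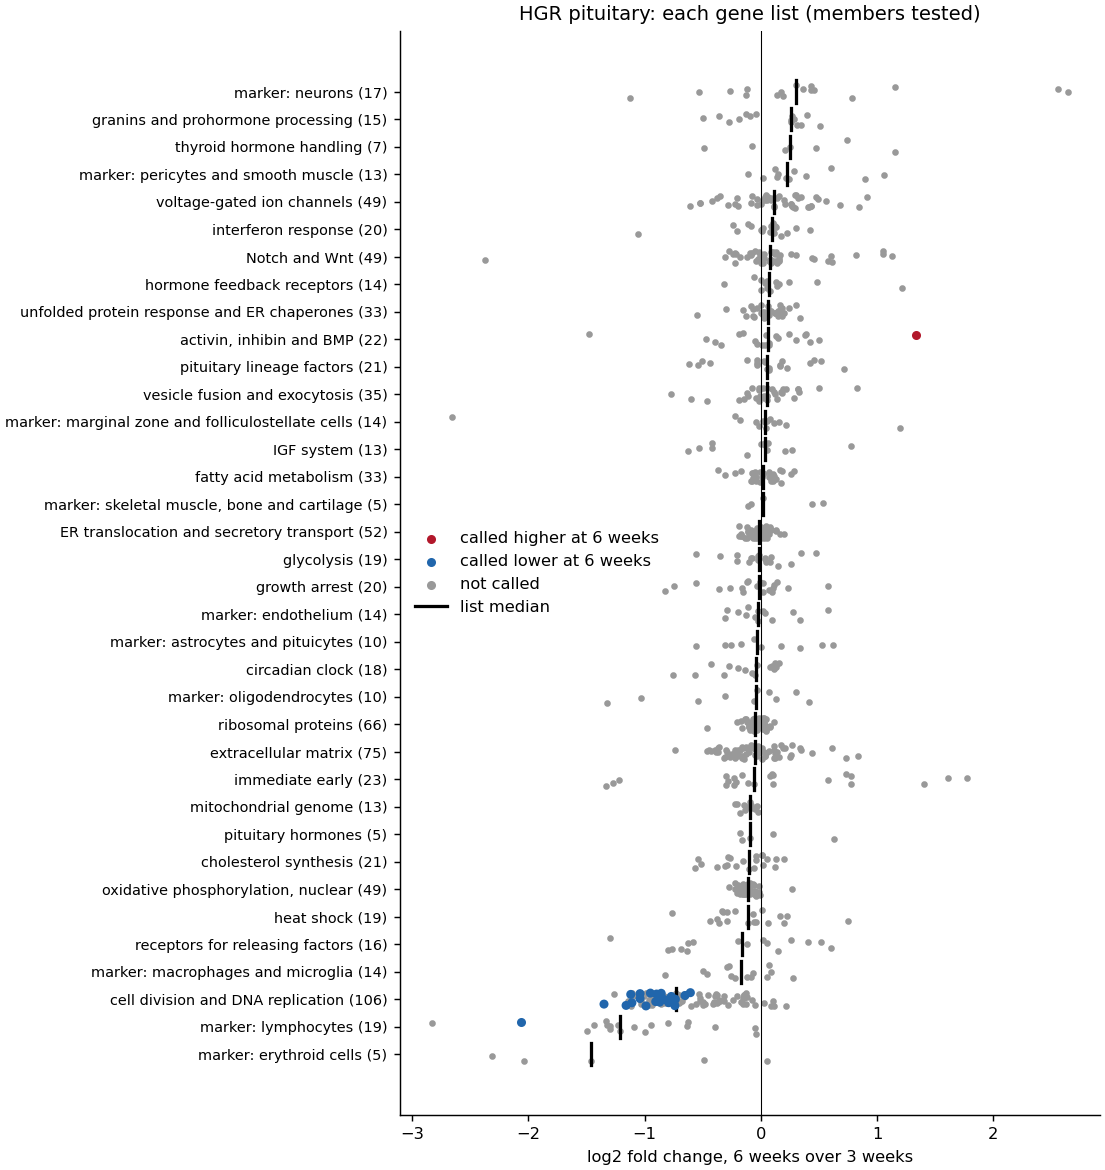
Log2 fold change, 6 weeks over 3 weeks, of every tested member of each gene list in HGR pituitary, with the number of members in parentheses and a black bar at the list median. Blue points were called lower at 6 weeks and red points higher, and the cell division list (median -0.73, 21 called lower) and the lymphocyte and erythroid markers (medians -1.21 and -1.46) lie furthest to the left.

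Markers of other cell types moved with age as well. Of 19 tested lymphocyte markers, 1 was called lower by edgeR and 9 by DESeq2, 16 were lower at an unadjusted p under 0.05 against 7.57% of all genes, and all 19 had a negative log2 fold change (median -1.21). The summed level of the list was 108, 125, 199 and 107 CPM at 6 weeks, against 261, 160, 468 and 270 CPM at 3 weeks. The sums overlapped through bird 2 at 3 weeks and bird 3 at 6 weeks. CD5, a surface receptor of T cells, was the one called, with 1.75, 1.59, 2.40 and 1.78 CPM at 6 weeks, against 9.38, 3.96, 12.4 and 5.79 CPM at 3 weeks (log2 fold change -2.06, SE 0.35, edgeR adjusted p = 0.0497). CCR7, a homing receptor of lymphocytes, had 1.38, 1.22, 2.58 and 2.31 CPM at 6 weeks, against 14.1, 4.23, 26.5 and 8.74 CPM at 3 weeks, without overlap (edgeR adjusted p = 0.0653). CD3E, a subunit of the T cell receptor complex, had 14.6, 14.4, 23.4 and 16.9 CPM at 6 weeks, against 44.9, 20.1, 74.1 and 31.8 CPM at 3 weeks (edgeR adjusted p = 0.157).

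The cell division and lymphocyte lists were also set side by side within birds. Bird 2 at 3 weeks carried a lymphocyte sum of 160 CPM, below the 199 CPM of bird 3 at 6 weeks, while its cell division sum was 3624 CPM against 2656 CPM in that bird. Without bird 3 at 3 weeks, the bird with the highest sum in both lists, 85 of the 106 cell division genes were still lower at an unadjusted p under 0.05 and their median was -0.70, while 10 of the 19 lymphocyte markers were lower and their median was -0.89. The part of lymphocytes in the cell division difference was not tested.

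Blood and macrophage markers varied by bird. The 5 tested erythroid markers summed to 118, 115, 484 and 237 CPM at 6 weeks, against 1874, 1421, 328 and 237 CPM at 3 weeks, so birds 1 and 2 at 3 weeks held most of this signal and birds 3 and 4 at 3 weeks lay within the range of 6 weeks. HBAA, an alpha globin, followed it with 85.5, 86.1, 370 and 181 CPM at 6 weeks, against 1441, 1112, 248 and 172 CPM at 3 weeks (edgeR adjusted p = 0.273). The 14 macrophage and microglia markers summed to 1389, 1235, 1230 and 1111 CPM at 6 weeks, against 1850, 1319, 1918 and 1507 CPM at 3 weeks, with 0 called. The 10 oligodendrocyte markers had a median log2 fold change of -0.04, with 6 negative and 4 positive and 0 called by edgeR, so the list as a whole moved little. They summed to 334, 305, 455 and 290 CPM at 6 weeks, against 497, 655, 553 and 583 CPM at 3 weeks. Most of that sum was Enpp2, an enzyme that makes lysophosphatidic acid and is not confined to oligodendrocytes, with 217, 199, 269 and 145 CPM at 6 weeks, against 286, 534, 427 and 451 CPM at 3 weeks (log2 fold change -1.03, SE 0.22, edgeR adjusted p = 0.0838, DESeq2 adjusted p = 0.000162).

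Markers of the remaining cell types had no edgeR call and sums that overlapped. The medians on the log2 scale were 0.30 for neurons (17 tested), -0.03 for astrocytes and pituicytes (10), -0.03 for endothelium (14), 0.22 for pericytes and smooth muscle (13), 0.04 for the marginal zone and folliculostellate cells (14) and 0.02 for skeletal muscle, bone and cartilage (5). The neuron markers summed to 1250, 1276, 1099 and 1350 CPM at 6 weeks, against 1275, 1423, 1016 and 1267 CPM at 3 weeks. Of the 17, 12 had a positive log2 fold change. At an unadjusted p under 0.05, 4 were higher and 1 lower, against 6.08% and 7.57% of all genes. DESeq2 called 2 of them higher and 1 lower, so GAL, given next, is the largest fall of a list that leaned upward. GAL, the neuropeptide galanin, which is also made in the pituitary of several species, had 38.6, 20.6, 37.2 and 53.4 CPM at 6 weeks, against 94.0, 68.9, 61.3 and 104 CPM at 3 weeks, without overlap (log2 fold change -1.13, SE 0.27, edgeR adjusted p = 0.109, DESeq2 adjusted p = 0.00161).

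No other list had a call by edgeR, where 0.377% of all genes were called. Nuclear genes of oxidative phosphorylation shifted little but in one direction, with 48 of 49 negative, 14 lower at an unadjusted p under 0.05 (7.57% of all genes were) and a median log2 fold change of -0.11. Ribosomal proteins (66 tested) had a median of -0.05 and the mitochondrial genome (13 tested) one of -0.09. Cholesterol synthesis had 6 of 21 genes lower at an unadjusted p under 0.05 with a median of -0.10, and voltage-gated ion channels 9 of 49 higher with a median of 0.11, where 7.57% of all genes were lower and 6.08% higher. The medians were 0.07 for hormone feedback receptors (14), 0.25 for thyroid hormone handling (7), 0.03 for the IGF system (13), -0.06 for extracellular matrix (75), 0.02 for fatty acid metabolism (33) and -0.02 for glycolysis (19). They were -0.04 for the circadian clock (18), -0.06 for immediate early genes (23), -0.12 for heat shock (19), 0.08 for Notch and Wnt (49) and 0.09 for the interferon response (20).

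The age difference of HGR birds was then set against that of LGR birds, the light class, which were kept in other pens. In one fit over all 16 pituitaries, 1 of 15280 genes was called with age in LGR birds (0.00654%) and 1 in HGR birds, so the 56 calls of the fit of HGR birds alone have no LGR count of the same form beside them. The test of the difference between the 2 age changes, over 16 libraries, called 0 of 15280 genes by edgeR, with 685 genes (4.48%) at an unadjusted p under 0.05, and 27 by DESeq2. Leaving out 1 of the 16 libraries gave 2 calls without HGR bird 2 at 3 weeks, 1 without LGR bird 4 at 6 weeks and 0 otherwise. LGR bird 4 at 3 weeks stood apart with the lowest total of the 16, 6231478 counts. Its composition differed too, with ribosomal proteins at 86165 CPM, against 31864, 36283 and 31108 CPM in LGR birds 1 to 3 at 3 weeks. Nuclear genes of oxidative phosphorylation summed to 12535 CPM in it, against 5290, 5973 and 5516 CPM. The LGR values given here include this bird unless stated otherwise. Of the 106 cell division genes, 22 were lower with age in LGR birds at an unadjusted p under 0.05, against 7.54% of all genes there, and their median was -0.23. The difference between the classes was negative in 89 of the 106 genes, with a median of -0.40, and had an unadjusted p under 0.05 in 26, all negative, against 2.71% of all genes. These were 27 genes with a median of -0.44 without LGR bird 4 at 3 weeks, 14 genes with a median of -0.39 without HGR bird 3 at 3 weeks, and 13 genes with a median of -0.38 without HGR bird 2 at 3 weeks. The LGR sums of the list were 2502, 2626, 1972 and 2959 CPM at 6 weeks, against 2823, 2714, 3205 and 3115 CPM at 3 weeks, which overlap.

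Single genes are given as examples. All of this paragraph were called with age in the same HGR libraries, a choice that favours a larger change in HGR than in LGR birds. TPX2 changed by -1.04 on the log2 scale in HGR and by -0.12 in LGR pituitary, a difference of -0.92 (edgeR unadjusted p = 0.00255, adjusted p = 0.573). KIF15 changed by -1.16 in HGR and -0.06 in LGR pituitary (difference -1.10, unadjusted p = 0.00323), while CENPK changed by -0.74 in HGR and -0.47 in LGR pituitary (difference -0.27, unadjusted p = 0.326). None of these differences passed the adjusted threshold, so a greater fall in HGR birds was not established for any single gene of the list. Among the genes called higher, LRIG1, FAM129A and GALNT15 rose by 0.69, 0.82 and 1.14 in HGR and had log2 fold changes of 0.72, 0.75 and 1.10 in LGR pituitary, with unadjusted p-values of the difference between 0.863 and 0.945. BMPR1B rose by 1.33 in HGR and had a log2 fold change of 0.57 in LGR pituitary (unadjusted p of the difference 0.0397). KCNJ16 had 0.86 in HGR and 0.31 in LGR pituitary (unadjusted p = 0.182), and ENSGALG00000044919 had 0.64 in HGR and -0.0019 in LGR pituitary (unadjusted p = 0.138). Without LGR bird 4 at 3 weeks the unadjusted p of the difference was 0.00291 for KCNJ16, 0.0397 for ENSGALG00000044919, 0.0509 for BMPR1B and 0.0742 for CENPK, and the difference of LRIG1 turned from -0.03 to 0.20 (unadjusted p = 0.353).

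Lymphocyte markers went opposite ways in the growth classes. Their median log2 fold change was -1.21 in HGR and 1.02 in LGR pituitary, where 12 of 19 were higher at an unadjusted p under 0.05 (3.66% of all genes). The LGR sums were 392, 260, 201 and 239 CPM at 6 weeks, against 130, 109, 300 and 120 CPM at 3 weeks. The difference between the classes had an unadjusted p under 0.05 in 17 of the 19, all negative, against 2.71% of all genes in that direction, and again in 17 without LGR bird 4 at 3 weeks. Without HGR bird 3 at 3 weeks it was 15 of the 19, and the median difference was -1.76 in place of -2.16. The list accounted for 8 of the 27 genes that DESeq2 called for this difference (0.128% of those it tested), and 26 of the 27 were negative. CCR7 changed by -2.83 in HGR and by 1.18 in LGR pituitary (edgeR unadjusted p = 4.69e-05, edgeR adjusted p = 0.449, DESeq2 adjusted p = 0.000314). LCK, a kinase of T cell receptor signalling, changed by -1.23 in HGR and 1.08 in LGR pituitary (edgeR unadjusted p = 0.0002, edgeR adjusted p = 0.451, DESeq2 adjusted p = 0.0122). By edgeR no single marker passed the adjusted threshold for this difference. The sums of the 2 ages overlapped in each class. Among HGR this came through bird 2 at 3 weeks (160 CPM) and bird 3 at 6 weeks (199 CPM), and among LGR through bird 3 at 3 weeks (300 CPM).

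**Figure D5:**
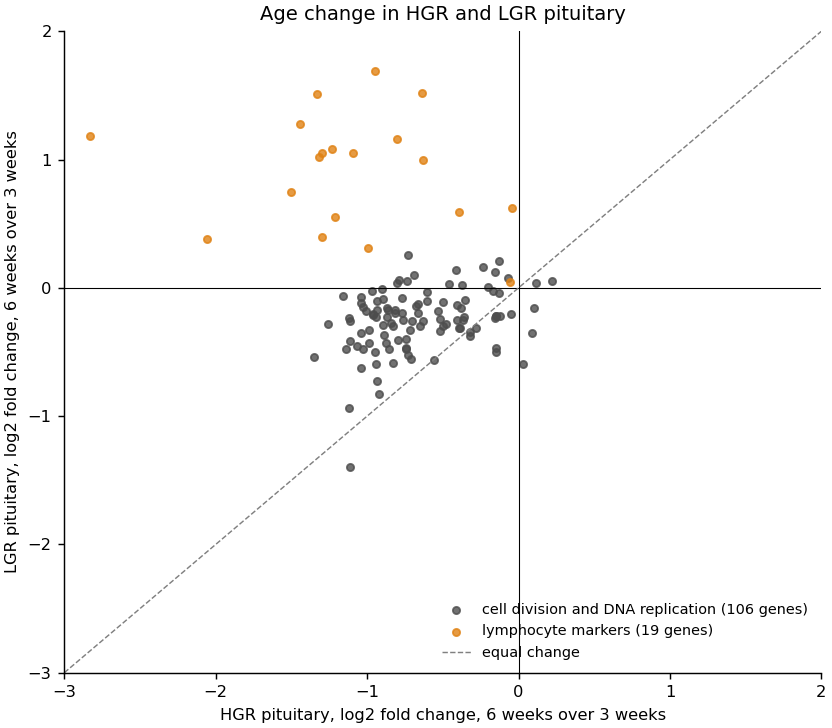
Log2 fold change, 6 weeks over 3 weeks, in HGR pituitary (horizontal) and LGR pituitary (vertical) for 106 cell division genes (grey) and 19 lymphocyte markers (orange), with the dashed line where both classes change equally. Grey points lie mostly left of and above the line, with medians of -0.73 in HGR and -0.23 in LGR pituitary, and orange points lie in the upper left, with medians of -1.21 and 1.02.

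The pituitary was also set against the hypothalamus of the same HGR birds, with the bird as a block. The paper left some hypothalamus samples of both ages out after clustering, and its text does not say which birds. All hypothalamus libraries of HGR birds were kept here. For the difference between the 2 tissues in their age change edgeR called 0 of 15795 genes, with 1266 (8.02%) at an unadjusted p under 0.05, and DESeq2 called 39 (0.183%), 26 lower and 13 higher in pituitary. Of the 106 cell division genes, 31 fell more in pituitary at an unadjusted p under 0.05 and 0 fell less, against 3.8% of all genes that fell more, and the median difference was -0.28. Lymphocyte markers moved with it, with 8 of 19 lower in pituitary relative to hypothalamus at an unadjusted p under 0.05, 17 of 19 negative and a median difference of -1.14, and their part in the cell division difference was not tested. The summed level of the 106 cell division genes in hypothalamus was 1272, 1292, 1325 and 1265 CPM at 6 weeks, against 1560, 1506, 1550 and 1317 CPM at 3 weeks. That of the 19 lymphocyte markers in hypothalamus was 132, 102, 113 and 108 CPM at 6 weeks, against 112, 175, 114 and 95 CPM at 3 weeks. MCM5 was one of 2 list members among the DESeq2 calls (edgeR difference -0.64, DESeq2 adjusted p = 0.017). BMPR1B (edgeR difference 1.26, DESeq2 adjusted p = 0.0323), GALNT15 (1.24, DESeq2 adjusted p = 0.00918) and MCHR2 (-2.02, DESeq2 adjusted p = 0.00918) were called there as well. The edgeR adjusted p was 0.342 for MCM5, GALNT15 and MCHR2 and 0.358 for BMPR1B. In all, 9 of the 39 were among the 56 genes called with age in pituitary, and both tests use the same HGR pituitary libraries.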

How the data were processed

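RNA of pituitary and hypothalamus was sequenced by the authors from libraries that do not mark strand, for the hypothalamus as single reads of 101 bases. The submitters' processing notes name CASAVA 1.8.2, FastQC, RSEM, Bowtie2 and DESeq2. The paper's methods describe the hypothalamus, and the build used for the pituitary is not given in the sources used here. The deposited table holds whole-number counts per Ensembl gene for all 32 libraries, not normalized, over 24881 genes. All of its per-sample columns were mapped to samples. The authors also deposited result tables with their own log2 fold changes and p-values, which were not used. Gene symbols and coordinates, for 10132 genes, came from those tables, whose coordinates are in base pairs. RefSeq tables matched none of the identifiers by Ensembl ID.

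Groups followed the labels, with 4 birds in each. No library was a duplicate of another in its group, since the chi-square of their counts, divided by the number of genes, was 19.8 to 39.2. Whether birds came from separate hatches is not stated, and p-values measure the spread between these birds. Genes were kept by edgeR's default filter (minimum count 10, minimum total 15), scaled by the trimmed mean of M-values, and tested with the quasi-likelihood test of edgeR 4.0.16 under R 4.3.3. The 3-week and 6-week HGR pituitaries were fitted alone, and the difference between growth classes over 16 pituitary libraries. The difference between tissues was fitted over 16 HGR libraries with the bird as a block. The sample descriptions give both tissues of a bird the same code. Deviations of both tissues of a bird correlated at r = 0.121 to 0.416, with no tissues of different birds computed for comparison. Log2 fold changes are 6 weeks over 3 weeks, differences are HGR minus LGR and pituitary minus hypothalamus, and the SE was derived from the F statistic. DESeq2 1.42.0 and limma 3.58.1 (voomWithQualityWeights) were alternatives, with other scalings, no filter, adjusted p alone, a replicate block and each library left out. The edgeR fits, and the DESeq2 and voom fits of age, were tested on simulated data.

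The members and gene lists were chosen with earlier results of these data known. Genes were named as follows: the hormones, the 10 called genes with the largest rise and fall that have a symbol, do not overlap and reach a mean of 5 CPM, the lowest p-values and largest changes of each list with a call, the 3 calls with the most counts in each direction, and members of the lists of lineage factors, receptors and granins. Others, such as CENPK, LMNB1, E2F1, CDK1, GINS3, CCR7, LCK, CD3E, GAL, HBAA, CACNA1H, INHBA, Enpp2 and the genes without a symbol other than ENSGALG00000000249, were chosen after their values were seen. Intervals were not computed for single libraries, as the spread between birds is the error given. Counts were not high for every gene named, and at a low level, as for CCR7, the value of a single bird also carries counting error.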

Additional observations from a re-analysis of the deposited data

Results flagged for a closer look

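Within a group of 4 birds, a bird was singled out when its gap to the nearest other bird exceeded Dixon's 95% critical value as a share of the group's range. Of 184 groups examined, 8 met this, where chance gives about 1 in 20. At 6 weeks these were ENSGALG00000041693 in bird 1 (16.6 CPM), SSTR4 in bird 4 (2.41 CPM), TSHB in bird 2 (5733 CPM) and TRHR in bird 2 (69.4 CPM). At the level of lists they were the summed IGF system in bird 3 (329 CPM) and the summed markers of the marginal zone and folliculostellate cells in bird 2 (1423 CPM), both at 6 weeks. At 3 weeks they were ENSGALG00000000249 in bird 1 (52247 CPM) and TSHB in bird 2 (2722 CPM). TSHB and TRHR at 6 weeks stand apart in the same bird.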

How the results depend on the processing

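The count of called genes moved with the test, the libraries fitted together and single libraries. It was 330 by DESeq2 (278 lower, 52 higher), 87 by voomWithQualityWeights (75 lower), 89 with a replicate block (81 lower) and 1 in one fit over 16 pituitary libraries (1 lower, 0 higher). Other scalings, no filter and no fold limit kept it within 1.5 times of 56, between 53 and 70. Without 1 library edgeR gave 0 to 108 calls (lower 0 to 102, higher 0 to 6), and 0 to 44 cell division genes called lower. DESeq2 with 1 library left out, added after seeing the data, gave 197 to 353 calls (lower 156 to 299, higher 41 to 71) and 51 to 66 cell division genes called lower. That count was 64 by DESeq2, 34 by voomWithQualityWeights, 41 with the replicate block and 0 in the fit over 16 libraries, against 21. At an unadjusted p under 0.05, 84 to 88 of the 106 were lower in every edgeR fit without 1 library. The medians of the cell division list and of the lymphocyte markers moved by less than the spread between birds under every alternative. The replicate numbers do not pair the 2 ages, which were different birds. Correlations between same-numbered birds were -0.0524, 0.0163, 0.259 and 0.0179.

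The interaction of age with growth class had 0 calls, against 27 by DESeq2 and 0 to 2 without 1 library, and that of age with tissue 0, against 39 by DESeq2. Directions turned in 4 genes near no change when 1 bird was left out. TRHR ran from -0.52 to 0.0488, CGA from -0.276 to 0.0148, POMC from -0.0314 to 0.236 and FSHB from -0.462 to 0.116 on the log2 scale, with FSHB at 0.056 without bird 4 at 6 weeks. The cause was not tested. With 4 birds in a group and the spread of FSHB (SE 0.44), a change of 1.5-fold could not be resolved, and a larger one could be missed too. TSHB, at 1.54 times its level at 3 weeks (SE 0.28), was not called (edgeR adjusted p = 0.364).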
